A study of Caenorhabditis elegans with 4 samples.

Results

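The regions described here are the NHR-237 peaks on chromosome III of the nematode Caenorhabditis elegans. They are all peaks placed on III in the authors' lists, 3816 of 30000 in replicate 1, 3887 of 30000 in replicate 2 and 14 of 89 in the list that combines both replicates. Chromosome III is the shortest of the 5 autosomes, with 13.8 Mb between its first base and the end of its last peak. The other 4 autosomes (I, II, IV and V) served as the comparison. Their lists held 20179, 20191 and 49 peaks.

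Chromatin immunoprecipitation and sequencing (ChIP-seq) recovers the DNA that a protein is fixed to, and regions with many reads are reported as peaks. The worms were hermaphrodites of strain OP228, an unc119(ed3) strain with the transgene wgIs228, in which nhr-237 carries the TY1, EGFP and FLAG tags and which also holds unc119, kept at 20 °C until the L3 larval stage and fixed with 2% formaldehyde. The 2 ChIP samples were precipitated with an anti-GFP antibody, and each had an input sample of the same strain and stage, taken from the lysate before precipitation. Every sample, input included, thus carried the tagged transgene, which was introduced by particle bombardment, and no untagged strain was analysed here. The peaks describe 1 transgenic strain, in whole larvae and not in 1 tissue. No label gives separate cultures for the replicates, so differences between them may be technical.

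NHR-237 is a nuclear hormone receptor, one of the transcription factors that bind DNA through a zinc-finger domain and that in many cases respond to small lipophilic ligands. The family is much larger in nematodes than in insects or mammals, and many of its members have no known ligand. Worm autosomes have a gene-dense centre in which recombination is rare and outer arms that are richer in repeats and recombine more. Gene density was not measured here, since the gene table at hand belongs to another genome build than the peaks.

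Each list names its peaks with a number counted from 1, called the peak number here, and peaks were ordered by it. Positions are on WormBase WS220. All peaks of a list have 1 width, which was 490 bp in replicate 1, 480 bp in replicate 2 and 520 bp in the combined list. A replicate peak is said to recur when it shares at least 1 bp with a peak of the other replicate. The lists hold no read counts, so the depth behind them is unknown. Both replicate lists end at number 30000. The thresholds are not stated, so whether the lists were cut at that number is unknown. Over all chromosomes 45.8% of the peaks of either replicate recurred.

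The 14 combined peaks on III were spread over the whole chromosome, with 4, 6 and 4 of them in the left, central and right part when III was cut into 3 equal parts. Each overlapped a peak in both replicates, which the making of the combined list from the same libraries may fix. Combined peak 15 was the only one of them at the highest score of the list, and 3 further peaks, numbers 19, 23 and 28, also had an authors' score above 0. Scores of the other 10 ran from -0.545 to -0.160. On the other autosomes 8 of 49 combined peaks (16.3%) scored above 0, against 4 of 14 on III (28.6%). The share on single other autosomes ran from 5.56% on II to 37.5% on V, and on X 19 of 26 scored above 0. This description was not tested. Where several replicate peaks met a combined peak, the one of lowest number is given as its match.

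In the left part, combined peak 76 lay at III:789004-789523 and matched replicate peaks numbered 62 in replicate 1 and 1954 in replicate 2. Combined peak 23 lay at III:3456136-3456655 and matched numbers 69 and 48. Combined peak 32 lay at III:3801304-3801823 and matched numbers 97 and 18. Peaks 23 and 32 were thus early in both lists, while peak 76 was early in replicate 1 alone. Combined peak 15, at III:3867303-3867822, matched numbers 16 and 9 and scored 1.49, the highest value of the combined list, at which 16 of the 89 peaks were tied. It began 66.0 kb to the right of peak 32, the shortest spacing between combined peaks on III.

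In the central part, combined peak 56 lay at III:4659050-4659569 and matched numbers 682 and 262. Combined peak 83, at III:5754993-5755512, matched numbers 197 and 777. Combined peak 39, at III:5843169-5843688, matched numbers 165 and 110 and began 88.2 kb from peak 83. These 3 peaks stood between number 100 and number 1000 in both replicates. Combined peak 55, at III:7854376-7854895, matched numbers 253 and 94. Combined peak 87, at III:8294958-8295477, matched numbers 413 and 2730, and combined peak 73, at III:8800186-8800705, matched numbers 972 and 82. No combined peak of the central part was within the first 100 of both replicates.

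In the right part, combined peak 19 lay at III:10989253-10989772 and scored 0.527. It met 2 overlapping peaks of replicate 1, numbers 14 and 32, and number 629 of replicate 2. Combined peak 28, at III:12904847-12905366, matched numbers 36 and 24 and was, with peak 15, among the earliest in both lists. Combined peak 86, at III:13130897-13131416, matched number 9423 in replicate 1 and number 42 in replicate 2, the widest disagreement on III. Combined peak 38, at III:13643380-13643899, matched numbers 212 and 80.

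The replicate matches of the combined peaks of III lay at nearly the same spots but were ordered differently. The making of the combined list from the same libraries may fix the closeness of the spots. The distance between the midpoints of the matched replicate peaks ran from 3 to 70 bp with a median of 24.5 bp, less than the width of a peak in each of the 14. On the other autosomes the median was 26 bp and the longest distance 170 bp. The later number was a median of 3.32 times the earlier one on III, with a range from 1.44 to 224, and on the other autosomes the median was 4.44. A number within the first 100 of both replicates was held by 4 of the 14 peaks (15, 23, 28 and 32), against 8 of 49 elsewhere. Of the 14, 3 matched a peak numbered above 1000 in at least 1 replicate (76, 86 and 87), against 14 of 49 elsewhere. Replicate 2 gave the lower number in 10 of the 14 and replicate 1 in 4, while elsewhere replicate 1 gave it in 23 of 49. The median number was 181 in replicate 1 and 88 in replicate 2, against 218 and 196 on the other autosomes. Single autosomes differed widely, with medians of 1626 and 65 on I and of 78 and 157.5 on V. These differences were not tested.

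**Figure D1:**
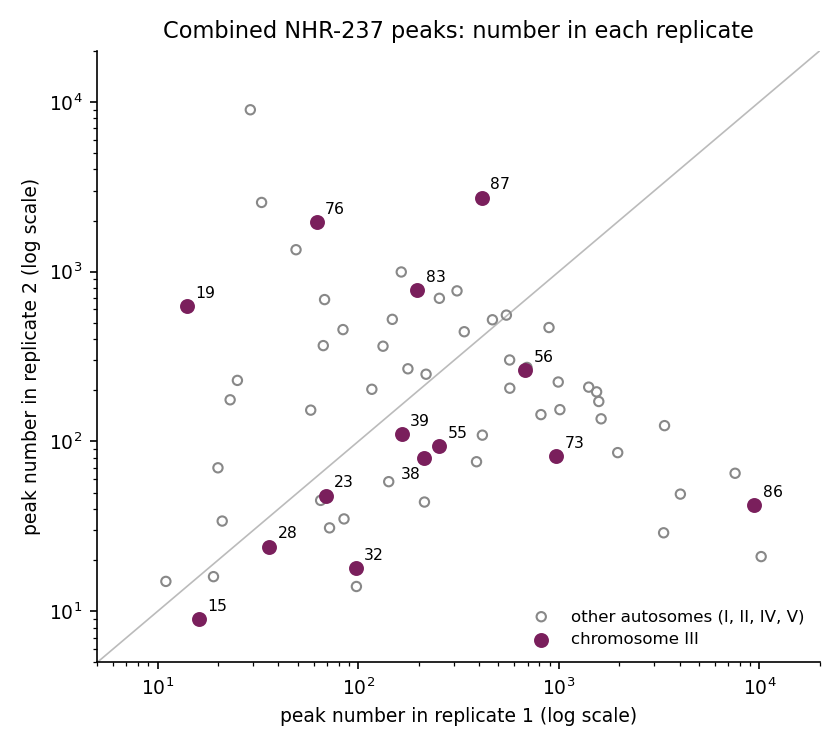
Peak number in replicate 1 against peak number in replicate 2, both on log axes, for the matches of each combined peak; filled points are the 14 peaks of chromosome III, labelled with their combined number, and open points are the 49 of the other autosomes. Points on the grey line have equal numbers in both replicates. Peaks 15, 23, 28 and 39 lie near it, while 86 (9423 and 42) and 19 (14 and 629) lie far from it.

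Early-numbered replicate peaks show which early-ranked regions of III did not enter the combined list. Of the first 100 peaks, III held 12 in replicate 1 and 20 in replicate 2, and the other autosomes held 50 and 54. Of all 30000 peaks III held 3816 and 3887, and the other autosomes 20179 and 20191. Whether the counts of early peaks differ from these was not tested. In replicate 1, 10 of the 12 recurred (83.3%, exact 95% Clopper-Pearson interval 51.6 to 97.9), against 83% over all chromosomes. In replicate 2, 14 of the 20 recurred (70.0%, interval 45.7 to 88.1), against 80% over all chromosomes. A combined peak was met by 7 of the 12 (58.3%), against 46% of the first 100 on all chromosomes, and by 8 of the 20 (40.0%), against 42%.

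The 2 early peaks of replicate 1 that did not recur were number 30, at III:10758964-10759453, and number 94, at III:7398971-7399460. The nearest midpoint of a replicate 2 peak was 4411 bp away for number 30 and 555 bp away for number 94. Number 30 scored 0.373 and came next on III by number after 14 and 16. Numbers 46, 76 and 80 recurred but met no combined peak. Number 46, at III:10332561-10333050, had a partner numbered 9199 in replicate 2 with its midpoint 6 bp away. Number 76, at III:5381601-5382090, had partner number 8838, and number 80, at III:12931590-12932079, had partner number 4726. These 3 were therefore shared in position but late in the other list.

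In replicate 2, 6 early peaks had no partner. They were numbers 38, 57, 71, 75, 81 and 89, at III:12614563-12615042, III:8801247-8801726, III:6372756-6373235, III:7922180-7922659, III:835837-836316 and III:4475457-4475936. The nearest replicate 1 midpoint lay between 854 bp (number 38) and 2600 bp (number 75) away. Number 57 lay beside another early peak, number 82 at III:8800237-8800716, which matched combined peak 73. A further 6 recurred outside the combined list, and all had late partners. Number 30, at III:8430124-8430603, had partner number 14945. Number 52, at III:4099506-4099985, had partner number 10282, with 12 bp between midpoints. Number 62, at III:3953255-3953734, had partner number 28359, near the end of the replicate 1 list, with 33 bp between midpoints.

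The other three, numbers 92, 96 and 98 at III:12601946-12602425, III:718833-719312 and III:12250079-12250558, had partners numbered 9313, 2810 and 3697. The late partner of combined peak 86, number 9423, was later than those of numbers 46, 76, 80, 92, 96 and 98, which met no combined peak. The remaining early peaks of both replicates are the matches of the combined peaks above. Among the 10 recurring early peaks of replicate 1 the best partner was within the first 100 in 4, above 100 and up to 1000 in 2 (both meeting number 629) and above 1000 in 4. Among the 14 of replicate 2 the counts were 4, 3 and 7.

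Recurrence on III was highest among the first 100 peaks of each replicate. After 83.3% and 70.0% there, the share was 67 of 109 peaks among the next 900 of replicate 1 (61.5%, interval 51.7 to 70.6, against 62.9% over all chromosomes) and 59 of 109 in replicate 2 (54.1%, interval 44.3 to 63.7, against 63.3%). Above 1000 it was 1613 of 3695 in replicate 1 (43.7%, interval 42.0 to 45.3, against 45.2%) and 1605 of 3758 in replicate 2 (42.7%, interval 41.1 to 44.3, against 45.1%). Intervals cover the number of peaks only. The intervals on III reached the share over all chromosomes in each class but the last of replicate 2. In finer classes, chosen after the data were seen, 40.0% of replicate 1 peaks and 39.1% of replicate 2 peaks of the last class, numbered above 20000, recurred, against 39.1% and 38.8% on the other autosomes. In replicate 2 the order of the classes was not steady, with 12 of 26 (46.2%) at numbers above 100 and up to 300, against 63.5% on the other autosomes, and 147 of 244 (60.2%) at numbers above 1000 and up to 3000, against 56.9%. The authors' score did not fall steadily with peak number. In replicate 1, number 94 on III scored -0.151 and number 9423 scored -0.0340, and 555 of the 3816 peaks scored above 0. Classes by score thus hold partly other peaks. With peaks ranked by this score into classes of the same sizes, the order on III changed. The 3 classes then gave 58.3%, 39.7% and 44.4% in replicate 1 and 71.4%, 40.4% and 43.2% in replicate 2, so that the last class lay above the middle one.

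Each list covered a good part of the chromosome, so these shares are set beside the level that position alone gives. That level weighs every start equally, although peaks were denser in the centre. What produced the overlaps was not tested. Replicate 1 peaks covered 12.7% of III and replicate 2 peaks 12.8%. A peak of 490 bp laid at every possible start on III in turn would meet a replicate 2 peak at 24.3% of them, and one of 480 bp would meet a replicate 1 peak at 23.9%. Even the latest class lay above these levels. Both lists covered the same 3.99% of III, which is 31.4% of the replicate 1 cover and 31.3% of the replicate 2 cover.

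**Figure D2:**
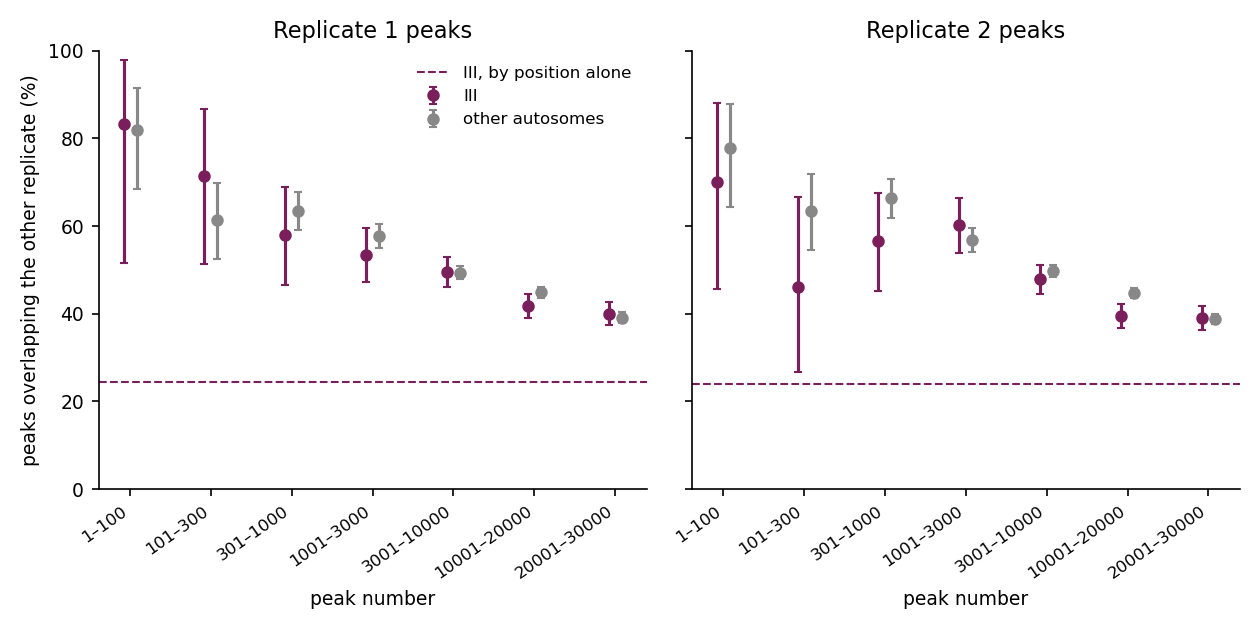
Share of peaks that overlap a peak of the other replicate, in percent, by class of peak number, with replicate 1 on the left and replicate 2 on the right. Points are shares on chromosome III and on the pooled other autosomes, bars are exact 95% Clopper-Pearson intervals, and the dashed line is the level that position alone gives on III (24.3% and 23.9%); the III shares are 83.3% and 70.0% in the first 100 and 40.0% and 39.1% in the last class.

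The recurring share was lower on III than on the other autosomes in 5 of 6 comparisons of a replicate and a class, and none passed the test. In the first 100 the difference was 1.33 points in replicate 1 (95% Newcombe interval -28.0 to 18.9) and -7.78 points in replicate 2 (-31.5 to 12.2). Among the next 900 numbers it was -1.61 points (-11.7 to 7.84) and -11.6 points (-21.7 to -1.73). Above 1000 it was -1.16 points (-2.89 to 0.594) and -1.96 points (-3.68 to -0.227). Two-sided Fisher's exact tests, adjusted by Benjamini-Hochberg over the 12 tests made of III against the other autosomes, gave adjusted p from 0.0598 to 1. Without chromosome I in the comparison, the replicate 2 difference among the next 900 passed, at -14.4 points (Fisher's exact test, adjusted p = 0.0304). With classes by score the same difference had the opposite sign, at 5.28 points, and did not pass (Fisher's exact test, adjusted p = 0.434). By peak number, chromosome I gave 54.4% there, close to the 54.1% of III, while II, IV and V gave from 66.2% to 73.4%. Peaks of 1 list share a library and can overlap, so these p-values treat as independent what is not. Both replicates also count the same overlaps, each from its own side, so the 6 comparisons are not separate observations.

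Midpoints of partners on III lay closest together for early peaks, as they did on the other autosomes. Of the 10 overlapping pairs whose replicate 1 peak was within the first 100, 7 had midpoints less than 50 bp apart. Of 82 pairs among the next 900 numbers the share was 39.0%, and of 1871 pairs above 1000 it was 30.7%. The other autosomes gave 48.0%, 34.8% and 29.1% in these classes. Beyond 50 bp the pairs above 1000 thinned out gradually, from 13.1% at 50 to 100 bp to 1.60% at 450 to 500 bp. When midpoints had to lie within 100 bp, 75.0%, 38.5% and 22.3% of replicate 1 peaks in the 3 classes recurred, and 60.0%, 33.9% and 21.95% of replicate 2 peaks. Over all chromosomes these shares were 68.0%, 39.0% and 22.6% in replicate 1 and 65.0%, 40.2% and 22.6% in replicate 2.

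**Figure D3:**
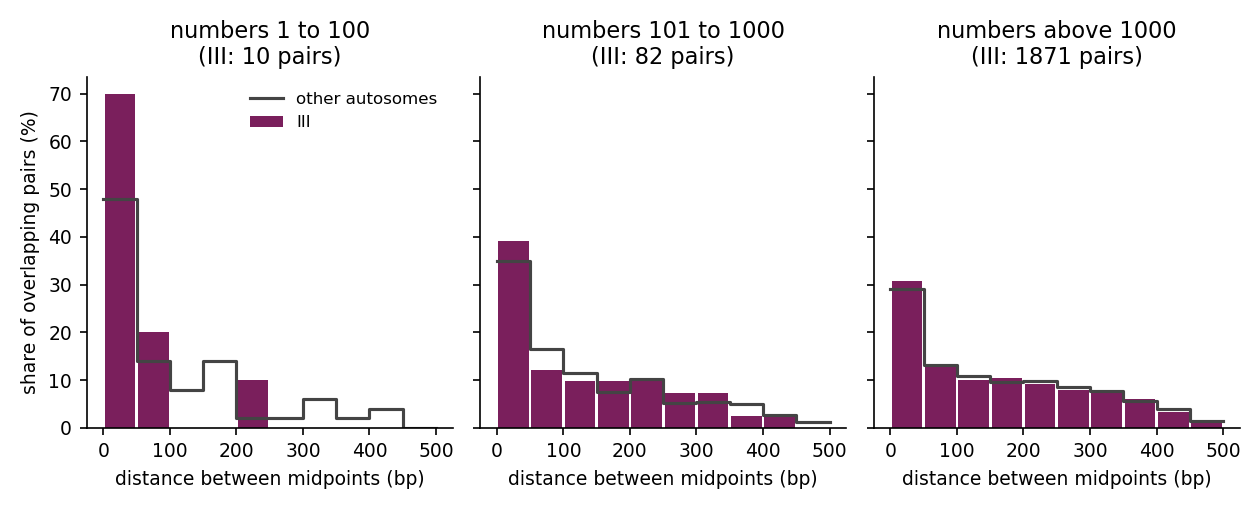
Distance between the midpoints of overlapping replicate peaks, in bins of 50 bp, as a percentage of the pairs of each class of replicate 1 number. Bars are chromosome III and the line is the pooled other autosomes; on III the first bin holds 70% of 10 pairs, 39.0% of 82 and 30.7% of 1871.

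Along the chromosome, peaks of both replicates were denser in the centre. In 1 Mb windows counted from the left end, the seventh window (6 to 7 Mb) held the most, 344 in replicate 1 and 350 in replicate 2. The fifth held 317 and 348 and the sixth 331 and 334, with equal means. The fewest lay in the third window, 197 in each replicate, and in the thirteenth, 194 and 217. The densest full window held 1.77 times as many peaks as the sparsest in replicate 1 and 1.78 times in replicate 2. Sparse windows sat inside the arms and not at the ends. The first window held a mean of 246.5 peaks, and the last, which is shorter, held 291 and 287 per Mb.

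Replicates drew nearly the same profile. Over the 13 full windows, which are not independent and share 1 chromosome, Spearman's rho between the replicate counts was 0.923 and Pearson's r was 0.951. For peaks numbered up to 1000 rho was 0.694 and r was 0.621. Full windows of III lay within the range of the 67 full windows of the other autosomes, which ran from 158 to 379 in replicate 1 and from 166 to 381 in replicate 2. Peaks numbered up to 1000 were few per window, from 4 to 17 in replicate 1 and from 4 to 18 in replicate 2, with the highest counts in the eighth window in replicate 1 and the ninth in replicate 2. The first 100 were placed otherwise. The fourth window held 3 and 4 of them, and 3 combined peaks. The eleventh held 4 in replicate 1 and none in replicate 2, while the thirteenth held 2 and 4. Combined peaks were missing from windows 2, 3, 7, 10 and 12, so that the window with the most replicate peaks held none.

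**Figure D4:**
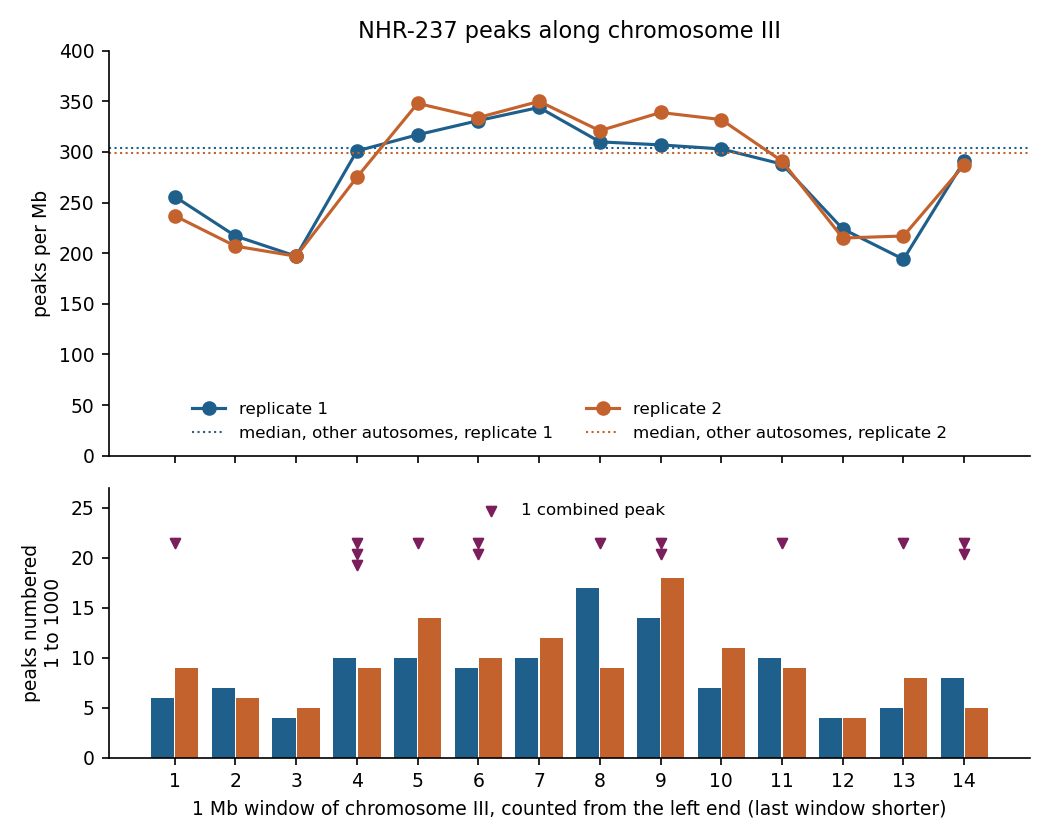
Peaks along chromosome III in 1 Mb windows counted from the left end; the upper panel gives peaks per Mb in each replicate, with dotted lines at the median full window of the other autosomes, and the lower panel gives the number of peaks numbered 1 to 1000 as bars and each combined peak as a triangle. Density is highest in window 7 (344 and 350) and lowest in windows 3 (197 and 197) and 13 (194 and 217).

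Recurrence was highest in the densest window and lowest in the second. In the seventh window 52.3% of replicate 1 peaks and 50.0% of replicate 2 peaks recurred, where position alone gives 29.7% and 28.5%. In the second window the shares were 34.1% and 32.9%, against 18.3% and 19.1% by position, and in the thirteenth they were 37.1% and 34.1%, against 18.5% and 17.2%. By part, replicate 1 peaks recurred at 41.8% on the left, 47.0% in the middle and 43.3% on the right. The level by position was 21.2%, 29.0% and 22.9% there. Replicate 2 peaks recurred at 42.3%, 44.7% and 42.0%, with 21.8%, 27.4% and 22.4% by position. The gap between the share and its level by position was narrower in the central part than in each outer part, in both replicates, a difference that was not tested. It was also narrowest in the central part on II and IV in both replicates, and on I and V in replicate 2 alone.

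The longest stretch of III without a peak in either list ran over 52.1 kb, at III:7402807-7454873, inside the dense centre. The early replicate 1 peak number 94, which had no partner, lay close to its left end. Elsewhere on III the regions covered by either list were mostly close together, and 6 further gaps exceeded 20 kb; the median gap on III was 1314 bp. Longest free stretches on the other autosomes ran from 30.8 kb on I to 140.0 kb on V.

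The central part of III, from 4.59 to 9.19 Mb, held more of the replicate peaks than either outer part. In replicate 1 it held 1485 of 3816 (38.9%, interval 37.4 to 40.5), with 1146 on the left and 1185 on the right. In replicate 2 it held 1553 of 3887 (39.95%, interval 38.4 to 41.5), with 1118 and 1216. The pooled other autosomes held 37.0% and 37.9% in their central parts. In both replicates the share on III was above that of each other autosome, which ran from 36.4% (V) to 37.9% (I) in replicate 1 and from 36.6% (II) to 38.6% (I) in replicate 2. The difference was 1.87 points in replicate 1 (95% Newcombe interval 0.192 to 3.56) and 2.05 points in replicate 2 (0.376 to 3.73). Neither passed the two-sided Fisher's exact test after adjustment (adjusted p = 0.0598 in both). With the middle 50% of each chromosome in place of the central part, III held 57.4% against 55.0% and 58.9% against 55.7%. These differences of 2.44 and 3.27 points passed the same exact test (adjusted p = 0.0319 and 0.00204). The test counts overlapping peaks of 1 library as independent, and the middle 50% was not tested with merged peaks. With overlapping peaks merged, the central-part difference was 1.15 points in replicate 1 and 1.98 points in replicate 2, and neither passed the exact test (adjusted p = 0.356 and 0.0608).

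By number, the central part of III held 2 of the 12 first peaks in replicate 1 and 6 of 20 in replicate 2. Of the next 900 it held 53 of 109 in replicate 1 (48.6%, interval 38.9 to 58.4) and 51 of 109 in replicate 2 (46.8%, interval 37.2 to 56.6). Above 1000 the share was 38.7% and 39.8%. On the other autosomes the 3 classes gave 36.0%, 43.4% and 36.9% in replicate 1 and 44.4%, 42.4% and 37.8% in replicate 2. Over peaks numbered up to 1000, III exceeded them by 2.64 and 1.62 points, which did not pass (Fisher's exact test, adjusted p = 0.824 and 0.924). Of the 14 combined peaks, 6 were in the central part (42.9%, interval 17.7 to 71.1), against 19 of 49 on the other autosomes (38.8%). With so few peaks the difference of 4.08 points had an interval from -21.5 to 31.6 (two-sided Fisher's exact test, adjusted p = 1).

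**Figure D5:**
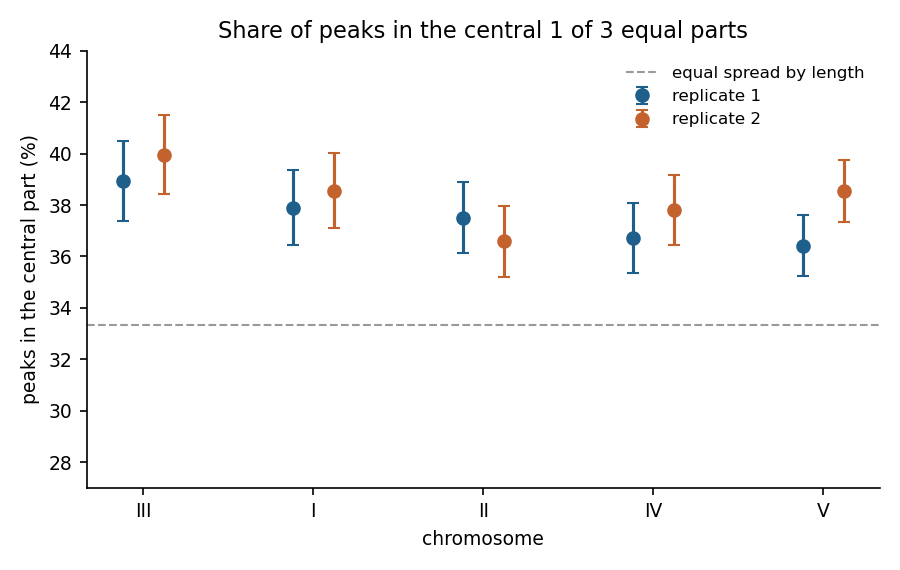
Share of peaks in the central of 3 equal parts of each autosome, in percent, for each replicate, with exact 95% Clopper-Pearson intervals; the dashed line is the share that an equal spread by length gives, and the axis does not start at 0. Chromosome III has the highest share in both replicates (38.9% and 39.95%). Its intervals overlap those of chromosomes I, IV and V in both replicates and that of II in replicate 1.

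For its length, III held slightly fewer replicate peaks than the autosomes together. Its density was 277 peaks per Mb in replicate 1 and 282 in replicate 2. Chromosome IV was as sparse (275 and 279), I held 285 in both, and II and V held from 300.3 to 310 per Mb. III makes up 16.7% of the autosome length and held 15.9% of the autosomal peaks of replicate 1, 0.952 of the number by length (two-sided exact binomial test, adjusted p = 0.0110). In replicate 2 it held 16.1%, 0.967 of that number, which did not pass (exact binomial test, adjusted p = 0.0598). When overlapping peaks were first merged into regions, the ratio in replicate 1 was 0.959 and no longer passed (exact binomial test, adjusted p = 0.0598). Among peaks numbered up to 15000 the replicates differed. The ratio was 0.904 in replicate 1 (exact binomial test, adjusted p = 2.96e-05) and 0.974 in replicate 2, which did not pass (exact binomial test, adjusted p = 0.344). Merged regions were not tested for this subset. These p-values treat overlapping peaks of 1 library as independent draws. The 14 combined peaks were 22.2% of the 63 autosomal ones (interval 12.7 to 34.5), 1.33 times the number by length (exact binomial test, adjusted p = 0.356).

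Peaks of III also overlapped within their own list. In replicate 1, 985 peaks (25.8%) overlapped another peak of the list, and in replicate 2, 952 peaks (24.5%). The other autosomes gave from 26.2% to 28.1% and from 25.1% to 28.6%. Merging left 3313 regions in replicate 1 and 3399 in replicate 2. The longest was made of 5 peaks over 1991 bp in replicate 2. Peaks 14 and 32 of replicate 1, which both meet combined peak 19, are such a pair, so that 1 region supplied 2 of the 12 early peaks.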

How the data were processed

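Samples were assigned to 2 NHR-237 ChIP and 2 input samples from their titles. The 3 peak lists are the authors' deposited files, 1 per ChIP sample and 1 combined. Input peaks were not analysed here. Per the file headers, the build is WormBase WS220, and the source column names the SPP peak caller and IDR (irreproducible discovery rate, a measure of how well peak ranks recur between replicates). The aligner, versions, thresholds and use of the input are not stated in headers or labels. The deposited score of each peak has no stated meaning. It was used to describe combined and early peaks and, as an alternative, to rank peaks within a list.

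Positions are 1-based. Overlap required 1 bp, the 3 equal parts of a chromosome and 1 Mb windows used peak midpoints, and chromosome length was the end of the last replicate peak. The level by position was counted over all start positions. III was compared with the other autosomes by 12 tests, exact binomial (3) and Fisher's exact (9), adjusted together at a threshold of 0.05. Alternatives were 50% overlap of both peaks, midpoints within 100 bp, the middle 50%, merged peaks, windows from 0.5 Mb, numbers up to 15000, first-to-last-peak span, classes by score and each other autosome left out; finer classes and numbers up to 1000 were added after the data were seen. Members, named regions (combined peaks, the first 100, the fullest and emptiest windows, the longest free stretch) and tests were chosen with earlier results of these data known. Tools were Python 3.11.15, numpy 2.4.6, scipy 1.17.1, pandas 2.3.3 and matplotlib 3.10.9, and the procedures were tested on simulated data.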

Additional observations from a re-analysis of the deposited data

How the results depend on the processing

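Of 70 alternatives to the 12 tests, 58 kept direction and side of the threshold. Each was adjusted in place of its main test, so the adjusted p-values do not cover the number of alternatives tried. The peak count of III in replicate 1 no longer passed with merged peaks (0.959 of the number by length), while the central-part difference passed with the middle 50% (2.44 and 3.27 points), and in replicate 2 the recurrence difference passed among the next 900 without chromosome I (-14.4 points) and above 1000 with classes by score (-2.50 points, Fisher's exact test, adjusted p = 0.0300). The recurrence difference changed sign 7 times, never past the threshold: in replicate 1 in the first 100 without IV (-5.56 points) and in the next 900 by score (1.52) and without II (0.178), and in replicate 2 in the first 100 with 50% overlap (3.33), midpoints within 100 bp (2.59) and by score (30.2), and in the next 900 by score (5.28). Shares on III moved by construction with stricter overlap: in the next 900 to 38.5% and 33.9% (midpoints), and above 1000 to 33.8% and 32.8% (50%) and 22.3% and 21.95% (midpoints). Classes by score gave 58.3% and 71.4% in the first 100, 39.7% and 40.4% in the next 900 and 44.4% and 43.2% above 1000, so that the last class no longer lay below the middle one; the cause was not tested. Recurrence in the 3 classes was 70.0% to 83.3%, 54.1% to 61.5% and 42.7% to 43.7%, depending on the replicate whose peaks were counted. Both counts use both lists, so neither leaves a replicate out. Single replicates gave 38.9% to 39.95% in the central part, and 3816 to 3887 peaks. All 14 combined peaks kept a match in each replicate, also by 50% overlap and midpoints within 100 bp. No paired analysis was possible because the input samples gave no peaks to set beside the ChIP peaks here. With the depth unknown, a peak absent from 1 list cannot be told from one too shallow to call. Nor can it be told from one past number 30000, if the lists were cut there.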
